A study of Mus musculus with 11 samples.

Results

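The 9 genes described here write, remove or read DNA methylation: Dnmt1, Dnmt3a, Dnmt3b, Uhrf1, Tet1, Tet2, Tet3, Tdg and Mbd1. They were listed by name for their roles, with earlier results of these data known, and were found by Ensembl identifier among the 38293 genes of the count tables. All 9 had at least 10 reads in total over the mice and were therefore tested, among 20589 genes in all. RNA of the whole hippocampus was sequenced from 11 wildtype F1 mice aged 14 weeks, the offspring of 129S6/SvEv dams and C57BL/6J males. The dams of 6 mice (CD, 3 males and 3 females) received a diet with 2.3 mg folic acid (FA) per kg, and the dams of 5 mice (FD, 2 males and 3 females) one with 40 mg FA per kg, for 6 weeks before mating only. From mating on, dams and offspring of both groups received the control diet, so that the F1 mice themselves were never fed the supplemented diet. The hybrid offspring are isogenic within a sex, and the labels do not say which mice shared a litter, so that p-values measure the spread between these mice.

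DNMT3A and DNMT3B place methyl groups on cytosines of unmethylated CpG dinucleotides, whereas DNMT1 copies the pattern to the new strand after replication, brought to hemimethylated sites by UHRF1. The TET enzymes oxidise methylcytosine, and the thymine DNA glycosylase TDG cuts out the last oxidation products so that repair can restore an unmodified cytosine. MBD1 binds methylated CpGs and helps to repress the genes that carry them. In the adult brain most cells no longer divide, and DNMT3A and the TET enzymes take part in changing methylation in neurons. Folate supplies the methyl groups that methyltransferases use, which is why these genes are of interest in this design. The tables hold RNA counts, not methylation levels.

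The total count on genes ranged from 11737554 to 44447006 per mouse, so that 3 counts corresponded to 0.0675 to 0.2556 CPM (counts scaled to library size), which covers counting error only. All 6 dentate granule cell markers and all 6 pyramidal cell markers were present in every mouse, with Prox1, a dentate granule cell transcription factor, at 128.0 to 162.8 CPM. Of 8 choroid plexus markers, Kcne2 was at 0 in at least 1 mouse, and Ttr, the most abundant product of that tissue, lay between 3.35 and 54.73 CPM. Ttr, Clic6, Folr1 and Kcne2 were highest in CD female 3, and the part of this tissue in the differences below was not tested. In whole tissue, fewer cells of a type and less RNA per cell cannot be told apart. A group of 3 libraries stood apart from the other 8 in their alignment: in CD female 1, CD female 3 and FD female 3, 15.1% to 16.0% of the aligned reads had several alignments, against 13.7% to 14.5% in the others. The tests between diets and between sexes are therefore also given without these 3 mice, a choice made after their values were seen.

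For 8 of the 9 genes, RefSeq promoter windows of 300 bases were at hand (13 windows, build GRCm38.p6, written in the direction of transcription). Shown here are those of Tet3 and Uhrf1, the members that passed the test between the sexes, and of Dnmt3a, the most counted de novo methyltransferase. Capitals mark CpG dinucleotides. For genes with several windows, 1 is shown. The windows lie at chr6:83441629-83441928 (minus strand), chr12:3806730-3807029 (plus strand) and chr17:56304063-56304362 (plus strand).
Tet3: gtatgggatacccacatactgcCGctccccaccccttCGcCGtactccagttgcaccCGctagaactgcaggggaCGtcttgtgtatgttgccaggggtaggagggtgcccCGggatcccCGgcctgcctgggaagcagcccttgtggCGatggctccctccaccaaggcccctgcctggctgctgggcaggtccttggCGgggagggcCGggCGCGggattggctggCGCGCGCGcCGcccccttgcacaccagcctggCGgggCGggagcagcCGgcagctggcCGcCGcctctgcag
Dnmt3a: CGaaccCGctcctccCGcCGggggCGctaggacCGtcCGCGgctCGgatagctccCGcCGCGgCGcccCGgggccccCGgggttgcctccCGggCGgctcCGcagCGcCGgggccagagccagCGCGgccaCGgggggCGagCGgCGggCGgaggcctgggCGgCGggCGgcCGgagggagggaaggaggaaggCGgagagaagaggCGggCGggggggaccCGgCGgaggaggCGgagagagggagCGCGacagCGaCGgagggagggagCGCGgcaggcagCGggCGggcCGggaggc
Uhrf1: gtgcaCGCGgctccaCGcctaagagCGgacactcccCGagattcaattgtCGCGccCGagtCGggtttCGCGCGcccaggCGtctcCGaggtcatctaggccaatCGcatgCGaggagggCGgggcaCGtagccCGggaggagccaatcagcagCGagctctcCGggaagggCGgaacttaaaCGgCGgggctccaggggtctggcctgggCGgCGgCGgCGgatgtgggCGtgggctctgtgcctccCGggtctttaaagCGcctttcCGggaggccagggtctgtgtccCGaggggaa

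The median over 32841 RefSeq promoter windows of this length was 7 CpGs. The Tet3 window holds 22, the Dnmt3a window 46 and the Uhrf1 window 33 CpGs, and 76.9%, 98.3% and 91.4% of all windows hold fewer. The windows not printed hold 47 and 18 CpGs for Dnmt3a and 12 for Uhrf1. The Tet2 window is the most CpG-rich of the members with 57, more than 99.8% of all windows, whereas the Tet1 window holds 17. Dnmt3b has 30 and Tdg 26 CpGs, and Dnmt1 has windows with 33, 12 and 2. The letters CCAAT occur on either strand in 37.4% of all windows and in those of Tet3 and Uhrf1 printed here, but not in that of Dnmt3a. The E2F strings TTTCGCGC, TTTGGCGC, TTTCCCGC or TTTGCCGC, searched on both strands, occur in 2.3% of all windows, and among the members only in the Uhrf1 window shown and in the Dnmt1 window with 33 CpGs. These matches describe the letters of the windows and do not show that a factor binds there.

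Dnmt1 had the highest level per length of the 9 genes and Dnmt3b and Uhrf1 the lowest. Levels between genes were compared as TMM-normalised CPM per kb of annotated exon, here given as the mean ± SD over all 11 mice. Dnmt1 had 7.73 ± 0.336 CPM per kb, Mbd1 4.52 ± 0.206 and Dnmt3a 4.41 ± 0.411, and Mbd1 lay above Dnmt3a in 7 of 11 mice only, so that these neighbours did not differ beyond their spread. Tet3 followed with 3.56 ± 0.375, Tet2 with 1.96 ± 0.321, Tet1 with 1.07 ± 0.2 and Tdg with 0.697 ± 0.0967 CPM per kb, each above the next gene in all 11 mice. Uhrf1 (0.213 ± 0.0625) and Dnmt3b (0.18 ± 0.0479) could not be ordered, with Uhrf1 higher in 5 of 11 mice. The order depends in part on the length used. Per kb of the longest coding transcript, Mbd1 (10.7) and Dnmt1 (10.6) lay close together, followed by Tet3, and Dnmt3a had 7.58 CPM per kb. By this length Tet1 (1.15) lay above Tdg (1.07) in 6 of 11 mice only.

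**Figure D1:**
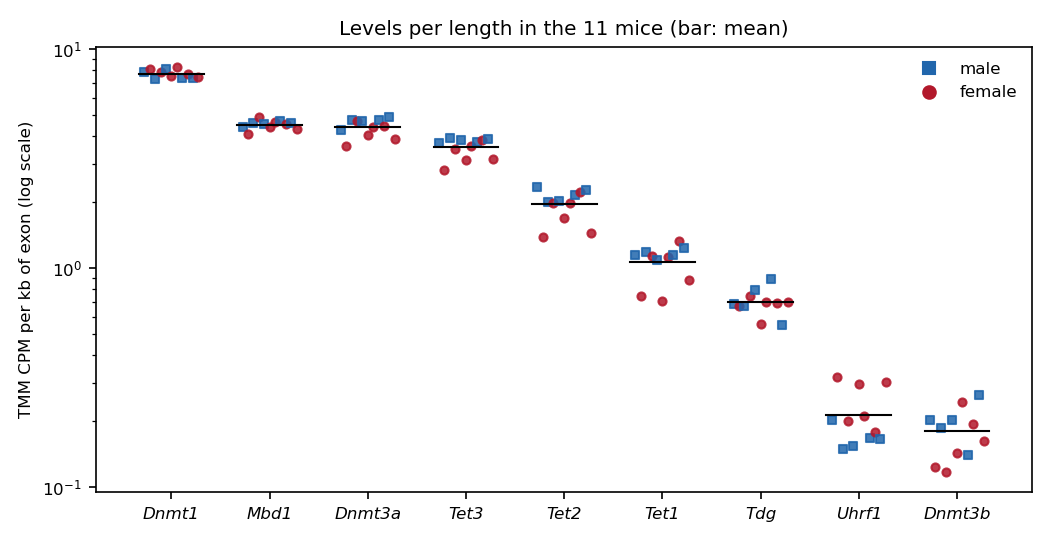
Level of each gene in TMM-normalised CPM per kb of exon (log scale), with 1 point per mouse, males as squares, females as circles and the mean over 11 mice as a bar. The levels span from 7.73 CPM per kb for Dnmt1 to 0.18 for Dnmt3b, and 3 females lie below the other mice in Tet1, Tet2 and Tet3 and above them in Uhrf1.

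Shares within families overlapped between the diets. Of the summed level per length of the 3 DNA methyltransferase genes, Dnmt1 made up 63.4% ± 2.9 in CD mice (SD, n = 6) and 62.0% ± 2.51 in FD mice (SD, n = 5). Dnmt3a made up 35.3% ± 2.79 and 36.4% ± 2.46, and Dnmt3b 1.32% ± 0.302 and 1.62% ± 0.382. Among the TET genes, Tet3 held 54.7% ± 2.15 in CD and 53.8% ± 2.16 in FD mice, Tet2 29.7% ± 1.73 and 29.5% ± 1.72, and Tet1 15.5% ± 1.52 and 16.7% ± 0.751.

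The first comparison asks whether the diet of the dams before mating left a difference in these genes in the adult hippocampus of their offspring. None of the 9 genes passed the test between FD and CD mice, and the ranges of CD and FD mice overlapped for each of them (adjusted p = 1.0 for all 9, edgeR quasi-likelihood test with Benjamini-Hochberg adjustment over 20589 genes). Over all genes, 14 passed at an adjusted p below 0.1, which is 0.068% of those tested, so that 0 of 9 was close to the background. At an unadjusted p below 0.05 there were also 0 of the 9, against 2.59% of all genes. Of the 9 fold changes, 7 were positive, with a median log2 fold change of 0.0474 against -0.00405 over all genes tested. Without the 3 libraries that stood apart, 0 of 9 passed, and the log2 fold changes were -0.01 for Dnmt1, 0.02 for Dnmt3a, 0.18 for Dnmt3b, 0.11 for Uhrf1, 0.09 for Tet1, 0.05 for Tet2, 0.01 for Tet3, -0.02 for Tdg and 0.01 for Mbd1.

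**Figure D2:**
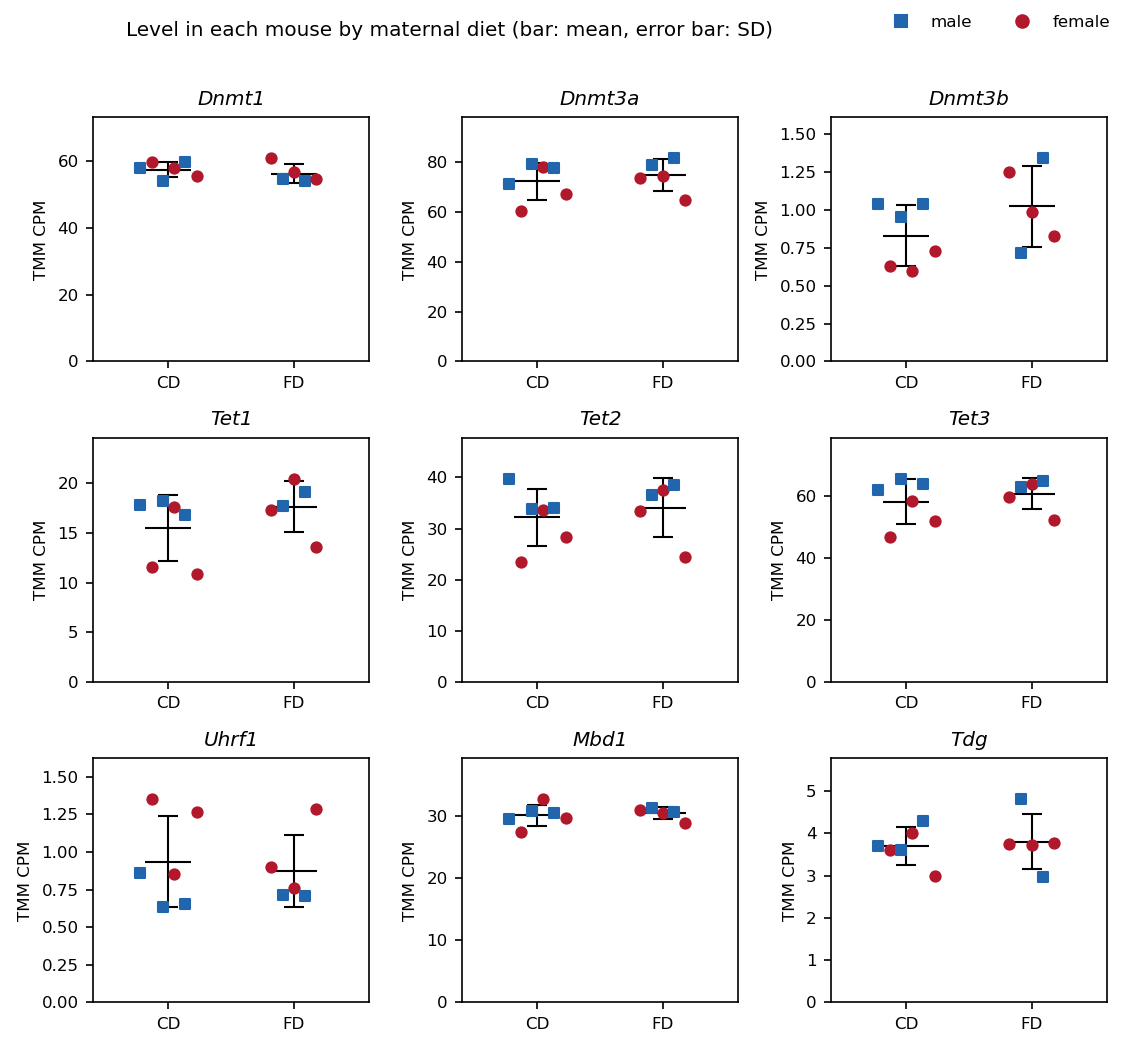
TMM-normalised CPM of each gene in each mouse (linear axes from 0), with CD and FD mice side by side, males as squares, females as circles, and the mean with SD as a bar with error bar. CD and FD values overlap in all 9 panels, and the spread within a diet is wider in Tet1, Tet2, Dnmt3b and Uhrf1 than in Dnmt1 and Mbd1.

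Of the writers, Dnmt1 (chr9:20907209-20959888, minus strand, GRCm38), the maintenance methyltransferase, varied least. It lay at 54.1 to 59.8 CPM in CD mice (median 58.0) and at 61.0, 54.6, 57.0, 54.2 and 54.9 CPM in FD mice (female 1, male 1, female 2, male 2 and female 3, the order used for FD mice throughout). FD female 1 was the highest of all mice and CD male 2 the lowest, and the log2 fold change of FD over CD was -0.03 (SE 0.0502). Its 95% interval ran from 0.909-fold to 1.05-fold, and the difference of the means had an exact two-sided permutation p = 0.426, in a design that allows no p below 0.002165.

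Dnmt3a (chr12:3806007-3914443, plus strand), the main de novo methyltransferase of neurons, lay at 60.3 to 79.2 CPM in CD mice (median 74.5) and at 73.7, 79.1, 74.5, 81.7 and 64.8 CPM in FD mice. The lowest mouse of each group was a female, CD female 1 and FD female 3. The log2 fold change was 0.05 (SE 0.075), with a 95% interval from 0.9259-fold to 1.153-fold. Of its exons, 133 bp (0.8%) are shared with the antisense gene Dnmt3aos, which had 1 read in all mice together.

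Dnmt3b (chr2:153649450-153687730, plus strand), the second de novo enzyme and mainly active in the early embryo, had only 7 to 46 reads per mouse. It lay at 0.597 to 1.04 CPM in CD mice (median 0.843) and at 1.25, 0.714, 0.99, 1.34 and 0.828 CPM in FD mice. The groups overlapped, with the highest value in FD male 2 and the lowest in CD female 2, and the log2 fold change of 0.25 (SE 0.22) had a wide interval, from 0.86-fold to 1.64-fold. Among females alone, the 3 CD mice had 0.628, 0.597 and 0.732 CPM, below all 3 FD females (log2 0.68, adjusted p = 1.0 by edgeR in females alone), and 3.92% of all genes tested had every FD female above every CD female, whereas the 2 FD males lay on either side of the 3 CD males (1.04, 0.953 and 1.04 CPM). The difference between the sexes in the diet effect did not pass the test (log2 -0.72, SE 0.427, adjusted p = 1.0, edgeR quasi-likelihood test). Its transcript shares identical stretches of at least 50 bases, together 20.3% of its length, with Dnmt3c, a related methyltransferase of the male germline that had 19 reads in all.

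Uhrf1 (chr17:56303321-56323486, plus strand), the partner of DNMT1 and a gene of dividing cells, had 10 to 43 reads per mouse. It lay at 0.636 to 1.35 CPM in CD mice (median 0.856) and at 0.901, 0.714, 0.761, 0.707 and 1.28 CPM in FD mice. The 3 highest values were in CD female 1, CD female 3 and FD female 3, the mice with the largest share of reads with several alignments. The log2 fold change was -0.05 (SE 0.249), with an interval from 0.673-fold to 1.39-fold, so that changes within it could not be told from 0 here. Of the Uhrf1 transcript, 37.8% lies in stretches of at least 50 bases shared with other genes, the longest (194 bases) with the processed pseudogene Gm5648, which had 6 reads in all.

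Of the genes for removal, Tet1 (chr10:62804570-62908996, minus strand) lay at 10.9 to 18.3 CPM in CD mice (median 17.2) and at 17.4, 17.8, 20.5, 19.2 and 13.6 CPM in FD mice. CD female 1, CD female 3 and FD female 3 had 11.6, 10.9 and 13.6 CPM and the other 8 mice 16.8 or more, so that the spread was set by these 3. Tet1 had a log2 fold change of 0.18 (SE 0.137) with an interval from 0.927-fold to 1.39-fold, and leaving out 1 mouse at a time gave 0.10 (without CD female 1) to 0.26 (without FD female 3).

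Tet2 (chr3:133463679-133545139, minus strand), the TET enzyme without a DNA-binding CXXC domain of its own, lay at 23.5 to 39.8 CPM in CD mice (median 33.6) and at 33.5, 36.5, 37.6, 38.5 and 24.5 CPM in FD mice. Its log2 fold change was 0.08 (SE 0.125), with an interval from 0.879-fold to 1.27-fold. Tet3 (chr6:83362373-83459084, minus strand), the most expressed TET gene here, lay at 47.0 to 65.8 CPM in CD mice (median 60.3) and at 60.0, 63.2, 63.9, 65.1 and 52.5 CPM in FD mice. Here too FD female 3 was the lowest FD mouse, and CD female 1 was the lowest of all. The log2 fold change was 0.06 (SE 0.0832), with an interval from 0.924-fold to 1.18-fold, and it was 0.00365 without CD female 1 and 0.11 without FD female 3.

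Tdg (chr10:82629828-82650799, plus strand), the glycosylase, lay at 2.996 to 4.29 CPM in CD mice (median 3.65) and at 3.75, 4.81, 3.73, 2.97 and 3.77 CPM in FD mice, where the 2 males were the highest and the lowest of all mice. Its log2 fold change was 0.04 (SE 0.126), with an interval from 0.855-fold to 1.24-fold. The counts of Tdg are uncertain. Of its longest coding transcript, 87.6% lies in stretches of at least 50 bases that other genes share, among them the processed pseudogene Gm9855 (up to 756 identical bases, 834 reads in all, against 980 for Tdg), and reads with several alignments were not counted. The shared stretches include 367 bp of its exons (6.83%) where Tdg overlaps the gene Glt8d2 on the opposite strand. This is the same place in the genome, so reads there need not have several alignments. Whether the counting used the strand is not given in the sources used here.

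Mbd1 (chr18:74267605-74282732, plus strand), the reader, lay at 27.5 to 32.8 CPM in CD mice (median 30.1) and at 31.1, 31.3, 30.5, 30.7 and 29.0 CPM in FD mice. Over all 11 mice its coefficient of variation was 4.55%, against 4.35% for Dnmt1 and 9.32% for Dnmt3a, and its log2 fold change of 0.02 (SE 0.0563) had an interval from 0.934-fold to 1.10-fold. Paired by the replicate number and sex in the labels, Tet1, Tet3 and Dnmt3b were higher in the FD mouse in 4 of 5 pairs, with exact sign-flip permutation p = 0.125, 0.1875 and 0.25, where 5 pairs allow no p below 0.0625. Dnmt3a, Tet2 and Tdg were higher in 3 of 5 pairs and Dnmt1, Uhrf1 and Mbd1 in 2 of 5. With these pairs as covariate, Tet1 had a log2 fold change of 0.24 (edgeR quasi-likelihood test, unadjusted p = 0.00923, adjusted p = 0.552). The unadjusted p of the other members in that fit was 0.0901 or more. CD male 3, which has no partner, is left out of it. With sex as covariate over all 11 mice, the log2 fold change of Tet1 was 0.23 (edgeR quasi-likelihood test, unadjusted p = 0.0624, adjusted p = 0.922).

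**Figure D3:**
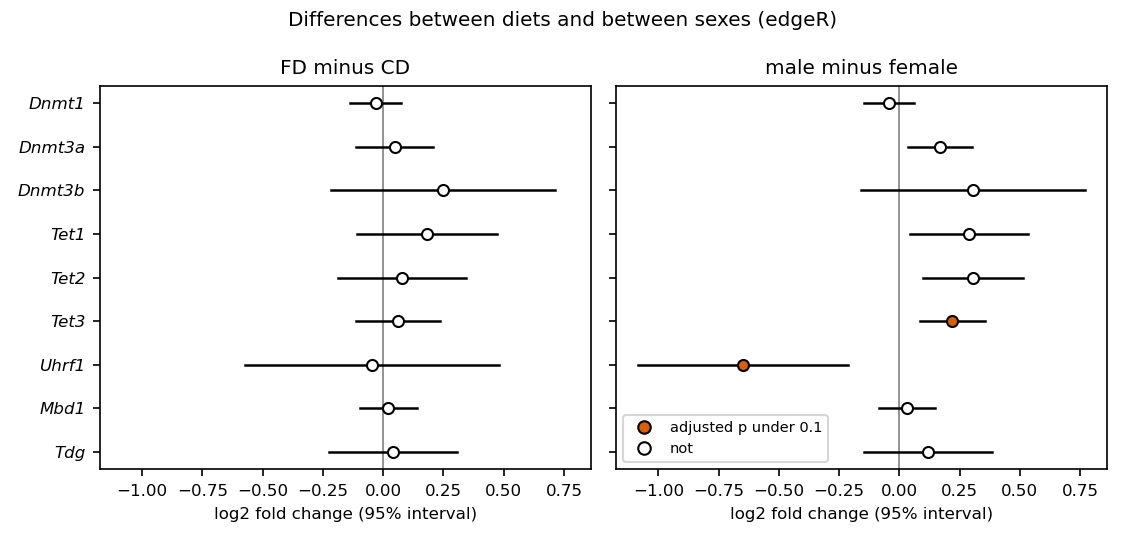
Log2 fold change of each gene with its 95% interval from edgeR, on the left FD over CD mice and on the right males over females with diet as covariate. All 9 diet intervals include 0, and filled points, Tet3 and Uhrf1 between the sexes, mark an adjusted p below 0.1.

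Between the sexes, fitted with diet as covariate, Tet3 was higher and Uhrf1 lower in males, both close to the threshold. Tet3 lay at 62.1, 65.8, 64.2, 63.2 and 65.1 CPM in the 5 males and at 47.0 to 63.9 CPM in the 6 females (median 55.5), which is a log2 fold change of 0.22 (SE 0.0638, adjusted p = 0.0852, edgeR quasi-likelihood test). Only FD female 2, at 63.9 CPM, reached the range of the males. Uhrf1 lay at 0.86, 0.636, 0.655, 0.714 and 0.707 CPM in the males and at 0.761 to 1.35 CPM in the females (median 1.08), with a log2 fold change of -0.65 (SE 0.206, adjusted p = 0.0981, edgeR quasi-likelihood test). Exact two-sided permutation tests of the means gave p = 0.0195 for Tet3 and p = 0.0152 for Uhrf1. Over all genes, 1257 passed (6.11%), 633 of them higher (3.07%) and 624 lower (3.03%) in males, so that 1 member in each direction has to be read against this background.

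Without CD female 1, CD female 3 and FD female 3, 0 of the 9 genes passed between the sexes, and 13 genes did over the whole table. These females had the lowest Tet1, Tet2 and Tet3 and the highest Uhrf1 values of all mice. Leaving them out had to bring the sexes closer in these genes, so this fit cannot decide whether the sexes differ. The log2 fold change was then 0.09 for Tet3 (adjusted p = 0.763) and -0.26 for Uhrf1 (adjusted p = 0.862, edgeR quasi-likelihood test), and that of Tet1 went from 0.29 to -0.01. With the share of uniquely aligned reads that fell into no gene or could not be given to a single gene (the unassigned share) as covariate, 9 genes and again 0 members passed, with log2 fold changes of 0.10 for Tet3 and -0.32 for Uhrf1. With any 1 mouse left out, the fold changes stayed at 0.17 to 0.26 for Tet3 and -0.72 to -0.54 for Uhrf1, although the calls were lost without any of 9 mice (all but CD female 2 and FD female 2). DESeq2 called Tet3 (log2 0.23, adjusted p = 0.0323) but gave Uhrf1 (log2 -0.63, unadjusted p = 0.0222) no adjusted p. Dnmt3a (0.17, SE 0.0629), Tet1 (0.29, SE 0.116) and Tet2 (0.30, SE 0.0991) had positive log2 fold changes with adjusted p = 0.144, 0.167 and 0.103 over all mice. For Dnmt1, Mbd1, Tdg and Dnmt3b the 95% intervals of the sex difference included 0, with Dnmt1 between 0.903-fold and 1.04-fold. Whether the diet effect differed between males and females was tested as an interaction, which called 0 genes (0.0%; 391 at an unadjusted p below 0.05, and 0 by DESeq2) and 0 of the 9.

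Dnmt3a, Tet1, Tet2, Tet3 and Uhrf1 separated the same 3 females from the other 8 mice. These mice have the most multi-aligned reads, but they were also singled out by the largest gap in Tet1, Tet2, Tet3 and Uhrf1 themselves. The separation of these genes is therefore a description, and the shares over all genes given below are not a like comparison. In CD female 1, CD female 3 and FD female 3, Dnmt3a had 60.3 to 67.3 CPM against 71.1 to 81.7 in the others, Tet2 23.5 to 28.4 against 33.5 to 39.8, and Tet3 47.0 to 52.5 against 58.5 to 65.8. Uhrf1 was at 1.27 to 1.35 CPM in these 3 mice and at 0.636 to 0.901 in the others. Dnmt1, Dnmt3b, Tdg and Mbd1 overlapped between the 3 and the 8. This separation was common in the transcriptome: of the 14437 genes averaging 1 CPM or more, 10.4% had all 3 mice below and 11.5% had all 3 above the others. The mice belong to both diets, and the labels give no property that all 3 share and the others lack.

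**Figure D4:**
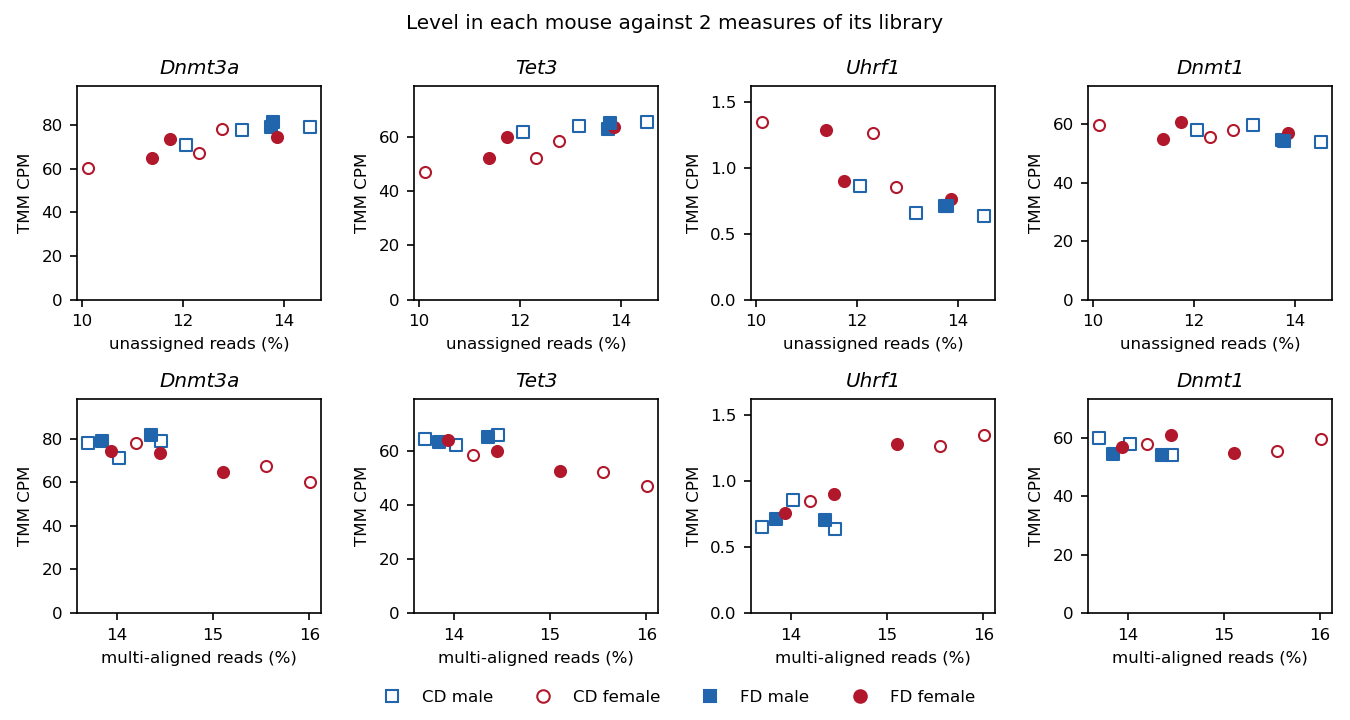
TMM-normalised CPM of Dnmt3a, Tet3, Uhrf1 and Dnmt1 in each mouse against the share of uniquely aligned reads not assigned to a gene (top) and of aligned reads with several alignments (bottom), with CD mice as open and FD mice as filled symbols. The 3 females above 15% multi-aligned reads are the lowest in Dnmt3a and Tet3 and the highest in Uhrf1, whereas Dnmt1 stays between 54.1 and 61.0 CPM.

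Relations between the members were examined with these 3 mice and without them. With diet and sex means removed from log2 CPM, 15 of 36 pairs passed at an adjusted p below 0.1 over all 11 mice. No pooled coefficient of these pairs is given since the mice fall into separate clusters. Over the other 8 mice, 0 of 36 pairs passed (exact permutation tests over 40320 orders, Benjamini-Hochberg adjustment, 2 pairs at an unadjusted p below 0.05). Of the 15 pairs, 9 had the same sign over these 8 mice, 5 of them with an absolute r of at least 0.5. Whether these counts exceed those of unrelated genes was not tested, so they do not show which relations remain. The pair with the smallest p was Dnmt3a with Mbd1 (r = 0.834, exact permutation p = 0.00841, adjusted p = 0.303, Spearman's rho = 0.833, exact permutation p = 0.0154, adjusted 0.55), and r was 0.575 without the 2 mice farthest in Dnmt3a. It was followed by Tet3 with Uhrf1 (r = -0.783, exact permutation p = 0.019, adjusted p = 0.342, rho = -0.762, exact permutation p = 0.0368, adjusted 0.55), with r = -0.628 without the 2 mice farthest in Tet3. These p-values are approximate, since means were removed first.

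**Figure D5:**
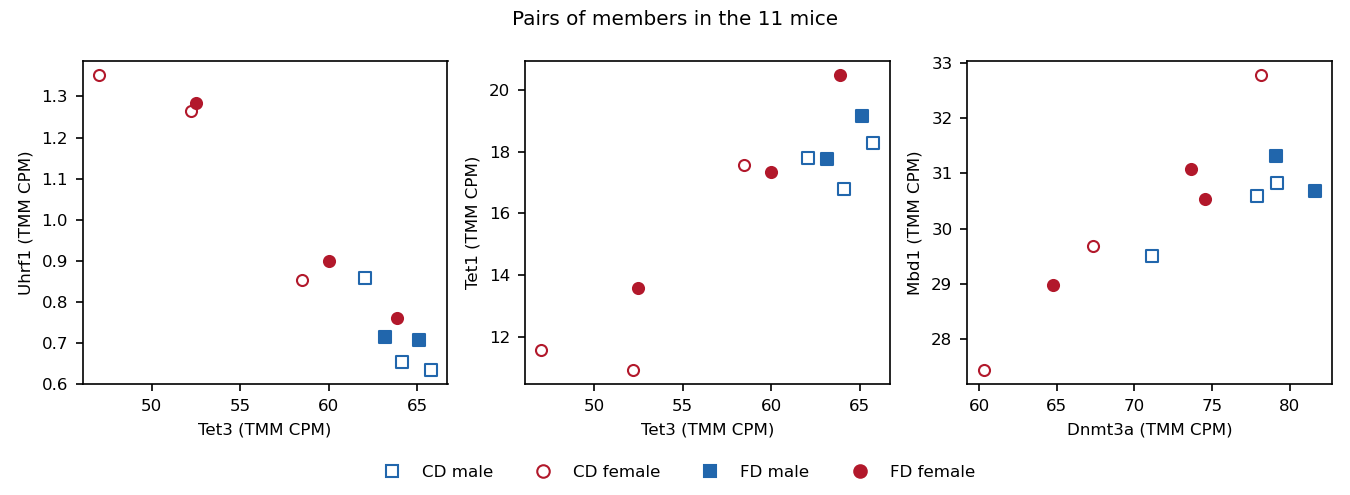
TMM-normalised CPM of Uhrf1 and of Tet1 against Tet3, and of Mbd1 against Dnmt3a, with 1 point per mouse, CD mice open, FD mice filled, males as squares and females as circles. In the first 2 panels the 3 females with Tet3 at 47.0 to 52.5 CPM lie apart from the other 8 mice at 58.5 to 65.8 CPM.

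The unassigned share of the uniquely aligned reads, which ranged from 10.1% to 14.5% over the libraries, was set against each member within the 8 mice. Over these mice 3 of the 9 genes had an absolute r of at least 0.7, against 13.9% of 14437 genes, whose median absolute r was 0.354. Uhrf1 fell as this share rose (r = -0.871, exact permutation p = 0.00553, adjusted over 9 genes 0.0498, rho = -0.786, exact permutation p = 0.0279, adjusted 0.126). Without the 2 mice farthest in the share, r was -0.639. Dnmt1 (r = -0.781, adjusted p = 0.0951 from exact permutation) and Tet3 (r = 0.745, adjusted p = 0.0951 from exact permutation) had rho = -0.881 (exact permutation p = 0.00724) and 0.476 (exact permutation p = 0.243), and r = -0.692 and 0.748 without the same 2 mice. Their part in the sex difference of Tet3 and Uhrf1 was not tested beyond the fit with this share as covariate. The 8 proliferating cell markers summed to 14.77 to 18.9 CPM in males (median 15.89) and 17.82 to 18.88 CPM in females (median 18.44). Their median log2 fold change of males over females was -0.25, with Mki67 (0.19) and Birc5 (0.09) positive and the others negative. Of the 8 markers, 0 passed the test between the sexes.

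A wider list of 66 genes of the same processes gave 64 that could be tested. The rest had too few reads. Between FD and CD mice 0 of the 64 passed, 29 fold changes were positive and 35 negative, and the median log2 fold change was -0.00764, against -0.00405 over all genes tested. Among the 12 tested writers and partners, those with the smallest p were Cdca7l (log2 0.27, SE 0.165), Zfp57 (0.15, SE 0.119), a zinc finger protein that protects methylation at imprinted loci, and Trim28 (-0.06, SE 0.0502), its corepressor. Among 18 genes of removal and repair they were Gadd45b (-0.21, SE 0.123), an activity-induced gene linked to demethylation in neurons, DNA polymerase beta gene Polb (-0.09, SE 0.0657), and the glycosylase gene Mbd4 (0.13, SE 0.105). Among the 10 readers they included Zfhx3 (0.28, SE 0.157) and Mbd3 (-0.07, SE 0.0828). For the 18 genes of reader complexes the largest of these was Mta1 (-0.08, SE 0.0653), a subunit of the NuRD repressor complex, beside Atf7ip (0.07, SE 0.0806) and the deacetylase gene Hdac1 (-0.07, SE 0.0955). Of the 6 binders of unmethylated CpGs, Kmt2a, a histone H3 methyltransferase gene, had 0.18 (SE 0.159), Kdm2b 0.06 (SE 0.0593) and Cxxc1 -0.03 (SE 0.0564).

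Between the sexes, 7 of the 64 passed (10.9%, against 6.11% of all genes tested), 6 higher and 1 lower in males. Kmt2a was at 262 ± 23.0 CPM in males (SD, n = 5) and 197 ± 47.6 in females (SD, n = 6), with a log2 fold change of 0.45 (SE 0.112, adjusted p = 0.0668, edgeR quasi-likelihood test). Zfp445, another zinc finger gene of imprint maintenance (0.36), Lig3, a DNA ligase gene (0.24), Zbtb33, which encodes the methyl-CpG reader Kaiso (0.22), Kdm2a, a histone demethylase gene (0.20), and Mbd2, another methyl-CpG reader (0.18), were also higher, with adjusted p from 0.0641 to 0.0928. Kdm2a and Mbd2 were the 2 of these in which every male lay above every female, which held for 1.05% of all genes tested and for 135 of the 1257 called, at 122.0 to 126.6 against 98.8 to 116.6 CPM for Kdm2a and 41.95 to 49.28 against 37.16 to 41.56 CPM for Mbd2. Gadd45g, related to Gadd45b, was lower in males (log2 -0.37, SE 0.118, adjusted p = 0.0994, edgeR quasi-likelihood test). Zfp57 (0.28, adjusted p = 0.128), Sin3a (0.14, adjusted p = 0.134) and Setdb1 (0.15, adjusted p = 0.158) had the next smallest p in their groups and were not called by this edgeR test. Of the glial marker lists, 1 gene each of the oligodendrocyte, astrocyte and microglia lists was lower in males, among them Gfap of astrocytes (log2 -0.17) and C1qa of microglia (-0.27), and their part in these differences was not tested. Without the 3 libraries with more multi-aligned reads, 0 of the 64 passed in either comparison.

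The genes whose log2 CPM, with diet and sex means removed, was most like that of a member over the 11 mice were sought among 14437 genes. They are given as a description. They were Btbd11 and Camk2d for Dnmt1 (r = 0.972 and 0.953), Ncoa3 and Traf3ip2 for Dnmt3a (0.974 and 0.97), and Abca4 and Mmp9 for Dnmt3b (0.949 and 0.94). Mrs2 and Btbd7 were nearest to Tet1 (0.988 and 0.984), Uprt and Cntnap5b to Tet2 (0.961 and 0.957), and Mysm1 and Ice1 to Tet3 (0.986 and 0.977). For Uhrf1 they were Pomp and Tars (0.986 and 0.982), for Mbd1 Pnpla3 and Plag1 (0.97 and 0.964), and for Tdg Mttp and Med24 (0.96 and 0.947). All 11 points of each value share the 3 mice that stood apart, and the best of 14437 coefficients is high by selection.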

How the data were processed

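Hippocampal RNA of 6 CD and 5 FD mice was sequenced as single-end reads. According to the paper and the labels, trimming was followed by STAR alignment to mouse mm10 (GRCm38), and the authors counted unique alignments per gene with featureCounts, although the summary lines have the form that HTSeq writes. The annotation release and strand setting are not given in the sources used here. The deposited values are raw counts per gene. Their 5 summary lines, 24.4% to 26.9% of all reads, were left out of library sizes. The sample labels gave each mouse its diet group, sex and number.

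Names and positions came from GENCODE M21 (95.1% of identifiers matched) and promoters from RefSeq. Genes with at least 10 counts in total were tested in R 4.3.3 with edgeR 4.0.16 (TMM, quasi-likelihood test, Benjamini-Hochberg adjustment, threshold 0.1). FD was compared with CD without covariates, males with females with diet as covariate, and the interaction in a separate fit. An SE is the size of the log2 fold change divided by the square root of F. Log2 CPM had a prior count of 2. Single genes were compared by exact permutation over 462 splits. Stretches shared with other genes were found with blastn 2.17.0, and the scripts were tested on simulated data. Tables and figures were made with Python 3.11.15 and matplotlib 3.10.9.

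The members and lists were chosen with earlier results of these data known. In the wider list, the genes named are the 3 with the smallest p between diets and the 2 between sexes in each group, and all that passed; some of them are not reported here. Alternatives covered DESeq2 1.42.0, its size factors, count filters, covariates, the replicate block, each sex or the CD mice alone, and each mouse left out. Leaving out 3 libraries together was added after seeing the data. With diet and sex means removed, same-numbered mice correlated at -0.042 and -0.088 (males 1 and 2) and -0.059, 0.319 and 0.219 (females 1 to 3). The highest r of the same CD mice with another FD mouse of their sex was -0.124, -0.197, 0.202, -0.029 and -0.187. By these values same-numbered mice were the more alike in all pairs but female 1, although both male pairs had a negative r. Both mice of pair female 3 are among the 3 libraries that stood apart. With only the diet mean removed, pairs male 1 (0.391 against 0.417) and female 1 (0.325 against 0.526) were the less alike, and the other pairs the more alike. What the numbers stand for is not given, and the main fits do not use them.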

Additional observations from a re-analysis of the deposited data

How the results depend on the processing

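For the diet comparison, 0 of the members tested passed under every alternative run (8 of the 9 could be tested with at least 10 counts in every mouse, Dnmt3b not). The number of genes called over the whole table was 14; it was 1 with at least 10 counts in every mouse, 22 with the unassigned share as covariate, 23 with the replicate block, 2 in males, 1 in females, 4 without the 3 multi-aligned libraries, and 3 to 12 with 1 mouse left out. For the sex comparison, 1257 genes and 2 members became 2043 genes (3 members: Dnmt3a, Tet2 and Tet3, but not Uhrf1) with DESeq2, 2645 (5 members) with every gene of at least 1 count, 9 (0) with the unassigned share, 37 (0) without diet covariate, 5 (0) in CD mice and 13 (0) without the 3 libraries. Leaving out 1 mouse gave 18 to 3244 genes and 0 to 5 members: 5 without CD female 2 or FD female 2, and 0 without any other mouse. The log2 fold changes then stayed at 0.17 to 0.26 for Tet3 and -0.72 to -0.54 for Uhrf1. Without diet covariate they were 0.21 and -0.61, so in these settings the calls were lost while the fold changes stayed similar. In other settings the fold changes themselves were smaller. They were 0.10 and -0.32 with the unassigned share as covariate, and 0.09 and -0.26 without the 3 libraries. The interaction called 10 genes with every gene of at least 1 count and 0 to 1 with 1 mouse left out, and 0 of 9 members in each case. Member relations numbered 15 of 36, 15 with DESeq2's size factors, 10 with the unassigned share also removed and 0 without the 3 libraries.

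The sign turned only in log2 fold changes that were not called. For diet, Uhrf1 was 0.0578 with the unassigned share, 0.00641 in males and 0.107 without the 3 libraries, Dnmt3b -0.0303 in males and Tdg -0.0164 without the 3 libraries. With 1 mouse left out, the diet values ranged from -0.0015 to 0.096 for Dnmt3a, -0.00374 to 0.179 for Tet2, -0.232 to 0.134 for Uhrf1, -0.00514 to 0.0441 for Mbd1 and -0.0567 to 0.108 for Tdg. Without a turn of sign, diet values ranged from 0.00365 to 0.112 for Tet3, 0.101 to 0.264 for Tet1, 0.137 to 0.356 for Dnmt3b and -0.052 to -0.0141 for Dnmt1. For sex, Mbd1 was -0.0346 with the unassigned share, -0.0401 without the 3 libraries and -0.000514 to 0.065 with 1 mouse left out, and Tet1 was -0.0121 without the 3 libraries. For the interaction, Uhrf1 was -0.00974 and Tdg 0.132 without the 3 libraries, and 1 mouse left out gave -0.0774 to 0.115 for Dnmt3a, -0.0513 to 0.0806 for Mbd1, -0.272 to 0.0287 for Tet2 and -0.48 to 0.22 for Tdg. The causes were not tested. Dnmt3b and Uhrf1 rest on 7 to 46 and 10 to 43 reads per mouse; counting error and spread between mice were not separated.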
